A study of Mus musculus with 9 samples.

Results

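A set of 3933 regions of open chromatin was examined in mouse embryonic stem cells, out of 157497 regions counted in the study (2.50%). Each member overlapped, by at least 1 bp, an interval of the deposited peak list named for the NanogKO:Esrrb:Nanog libraries and an interval of the list named for the NanogKO libraries, overlapped no interval of the NanogKO:Esrrb list, and lay on chromosomes 1 to 19 or X. Members were thus chosen by measured values, the peaks called from these same libraries. Accessibility had been measured by ATAC-seq, in which a transposase inserts adapters into open DNA, in 9 libraries, 3 per group, with read counts summing to 35545030 to 58520948 per library. By their titles, the NanogKO:Esrrb:Nanog cells (44JN) and the NanogKO:Esrrb cells (44J) carried Esrrb on a Nanog knockout, with and without Nanog, and the NanogKO cells (44C6) carried the knockout alone. NanogKO:Esrrb:Nanog and NanogKO:Esrrb shared a cell line name, N{delta}:cE:iN, and NanogKO had another, N{delta}, so line and added factor cannot be told apart in a comparison with NanogKO. The titles still name those cells apart, as 44JN and 44J. Whether NanogKO:Esrrb:Nanog and NanogKO:Esrrb differ in more than Nanog therefore cannot be told either. All cells grew untreated in 10% serum with LIF, a cytokine that sustains self-renewal, at 1000 U/ml, and all were sorted as PECAM+ PDGFRA- cells. The labels do not say whether replicates were separate cultures, and their spread, on which every p-value rests, may then be technical.

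The peak names went against the label of the list that stands for NanogKO:Esrrb:Nanog. All of its 138118 intervals carried peak names of the third NanogKO:Esrrb library, and none carried a name from a NanogKO:Esrrb:Nanog library. Of its 114798 distinct names, 102788 also stood in the NanogKO:Esrrb list, each with the same score. All 3933 members therefore overlapped an interval named after a peak of NanogKO:Esrrb replicate 3, and in 114 of them (2.90%) the same name also stood in the NanogKO:Esrrb list, at another interval. The members are accordingly described as regions absent from the NanogKO:Esrrb list, not as regions without a peak in NanogKO:Esrrb cells. Each column of the count table belongs to 1 library, although its regions are the merged intervals of the 3 lists.

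Peak lists record where a caller's threshold was passed, whereas counts record how many reads fell in a region, so a region can lack a peak and still be partly open. ESRRB is an orphan nuclear receptor that binds DNA sites related to those of the estrogen receptor, and NANOG is a homeodomain protein. Both act in the naive pluripotency network of embryonic stem cells, where Esrrb is known as a direct target of NANOG. Open regions at gene starts tend to be accessible in many cell states, and distal regions vary more between states.

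Few members lay at gene starts. Of the 3789 members on chromosomes with a promoter table, 83 (2.19%) overlapped a RefSeq promoter window, 250 bases before to 50 after a start. The same share was 9.14% over all counted regions and 15.1% over regions with an interval in all 3 lists, but 1.53% over regions in the NanogKO list alone and 2.32% over those in the NanogKO and NanogKO:Esrrb lists alone. The promoters of 5 genes are printed as RefSeq gives them on GRCm38.p6, the assembly of mm10, because in them the measured region and known sequence can be read together. They were chosen after the values were seen, 3 for a low level in NanogKO:Esrrb and 2 for a high level overall. Each sequence is the 250 bases before the start on the gene's strand, 5′ to 3′, and capitals mark matches to the motifs searched. Phkg1, which encodes a catalytic subunit of phosphorylase kinase, has its window at chr5:129879089-129879338, minus strand. Tmem102, a transmembrane protein gene, has it at chr11:69805625-69805874, minus strand. Dmrt3, a DM-domain transcription factor gene, has it at chr19:25610287-25610536, plus strand. Sox12, a SoxC transcription factor gene, has it at chr2:152398047-152398296, minus strand. N4bp1, a NEDD4-binding protein gene, has it at chr8:86885259-86885508, minus strand.
Phkg1: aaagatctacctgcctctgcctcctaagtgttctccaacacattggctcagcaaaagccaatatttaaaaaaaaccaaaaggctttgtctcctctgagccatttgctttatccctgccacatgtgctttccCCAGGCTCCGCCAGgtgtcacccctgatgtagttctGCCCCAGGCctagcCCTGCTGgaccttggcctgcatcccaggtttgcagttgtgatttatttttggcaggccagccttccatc
Tmem102: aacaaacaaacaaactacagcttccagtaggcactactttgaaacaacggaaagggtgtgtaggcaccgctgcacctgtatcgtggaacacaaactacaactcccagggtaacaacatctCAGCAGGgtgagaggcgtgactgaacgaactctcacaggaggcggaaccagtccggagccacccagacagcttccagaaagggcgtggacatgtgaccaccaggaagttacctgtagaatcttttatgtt
Dmrt3: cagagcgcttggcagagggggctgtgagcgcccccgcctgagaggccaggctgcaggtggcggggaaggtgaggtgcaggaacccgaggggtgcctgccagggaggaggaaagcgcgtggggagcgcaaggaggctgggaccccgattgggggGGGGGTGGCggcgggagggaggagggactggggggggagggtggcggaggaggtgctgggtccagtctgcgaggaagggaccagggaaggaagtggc
Sox12: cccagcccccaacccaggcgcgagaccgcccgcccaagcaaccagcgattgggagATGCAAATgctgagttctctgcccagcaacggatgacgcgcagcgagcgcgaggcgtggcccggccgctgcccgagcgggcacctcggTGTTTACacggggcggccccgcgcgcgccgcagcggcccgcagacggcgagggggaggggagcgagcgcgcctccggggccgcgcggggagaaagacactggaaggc
N4bp1: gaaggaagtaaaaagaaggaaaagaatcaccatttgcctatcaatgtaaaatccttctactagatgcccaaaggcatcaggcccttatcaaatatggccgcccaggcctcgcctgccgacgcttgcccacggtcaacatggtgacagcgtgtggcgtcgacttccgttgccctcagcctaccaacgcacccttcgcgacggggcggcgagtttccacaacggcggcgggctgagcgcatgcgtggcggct

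In these sequences the capitals of Phkg1 mark a TFCP2L1 letter pattern, a TFAP2 pattern (GCCNNNGGC) and a ZIC pattern (CAGCAGG, here on the other strand), and those of Tmem102 mark a ZIC pattern. In Dmrt3 they mark a KLF pattern (GGGNGTGGC), and in Sox12 the octamer ATGCAAAT bound by OCT factors and a forkhead pattern (TGTTTAC). N4bp1 held none of the 20 patterns searched in these 250 bases. The member region covered 160 of the printed 250 bases at Phkg1, 193 at Tmem102, 135 at Dmrt3, 149 at Sox12 and 184 at N4bp1. Over all 91 promoters that overlapped a member, searched on both strands in the 300 base window, the ESRR core site AAGGTCA was found in 1 (1.10%), against 4.72% of all promoters and 3.30% of promoters in any counted region. The extended site TCAAGGTCA was found in 0 of the 91, against 0.423% of all promoters and 0.210% of promoters in any counted region. At shares this low, 0 matches among 91 promoters cannot tell member promoters from the others. ZIC patterns stood in 15.4% of member promoters, 11.4% of promoters in any counted region and 10.5% of all promoters. In the same order, TFCP2L1 patterns stood in 7.69%, 3.88% and 3.44%, and the ETS pattern CCGGAAGT in 1.10%, 6.85% and 3.89%. Shares of the other patterns searched are not given here. Median GC content was 57.7% in member promoters, 60.7% in promoters of any counted region and 52.7% in all promoters, with medians of 8, 19 and 7 CG dinucleotides. These shares are descriptions over few promoters, and a match is not a bound site.

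Members were shorter and of lower CPM and score than regions in all 3 lists. Their median length was 174 bp, with quartiles of 150 and 240 bp, against 345 bp over all counted regions and 511 bp over regions in all 3 lists. The score of their NanogKO list peak, the authors' own value, had a median of 194, against 419 for regions in all 3 lists. Regions in the NanogKO list alone had a median length of 182 bp and a score of 95, and those in the NanogKO and NanogKO:Esrrb lists alone 334 bp and 104. Members were thus close in length to the regions of the NanogKO list alone and had the higher scores. CPM values (read counts scaled to the effective library size and not to region length) had medians over members of 1.87, 1.88 and 1.90 in the NanogKO:Esrrb:Nanog libraries, 1.57, 1.61 and 1.74 in the NanogKO:Esrrb libraries, and 2.27, 2.30 and 2.29 in the NanogKO libraries. Regions of the NanogKO list alone had medians of 0.581 to 0.709 in NanogKO:Esrrb:Nanog, 0.775 to 0.821 in NanogKO:Esrrb and 1.49 to 1.60 in NanogKO, below the members in every group. In the median over members the 3 groups did not overlap, and NanogKO:Esrrb was lowest and NanogKO highest. Over all counted regions the groups overlapped, with medians of 2.74 to 2.96 in NanogKO:Esrrb:Nanog, 2.82 to 2.93 in NanogKO:Esrrb and 2.78 to 2.88 in NanogKO. Members took 0.847 to 0.902% of all counted reads in NanogKO:Esrrb:Nanog, 0.738 to 0.818% in NanogKO:Esrrb and 1.05 to 1.09% in NanogKO. The NanogKO:Esrrb libraries thus kept reads in regions that their list leaves out, at a median of 79 to 100 reads per member and library.

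**Figure D1:**
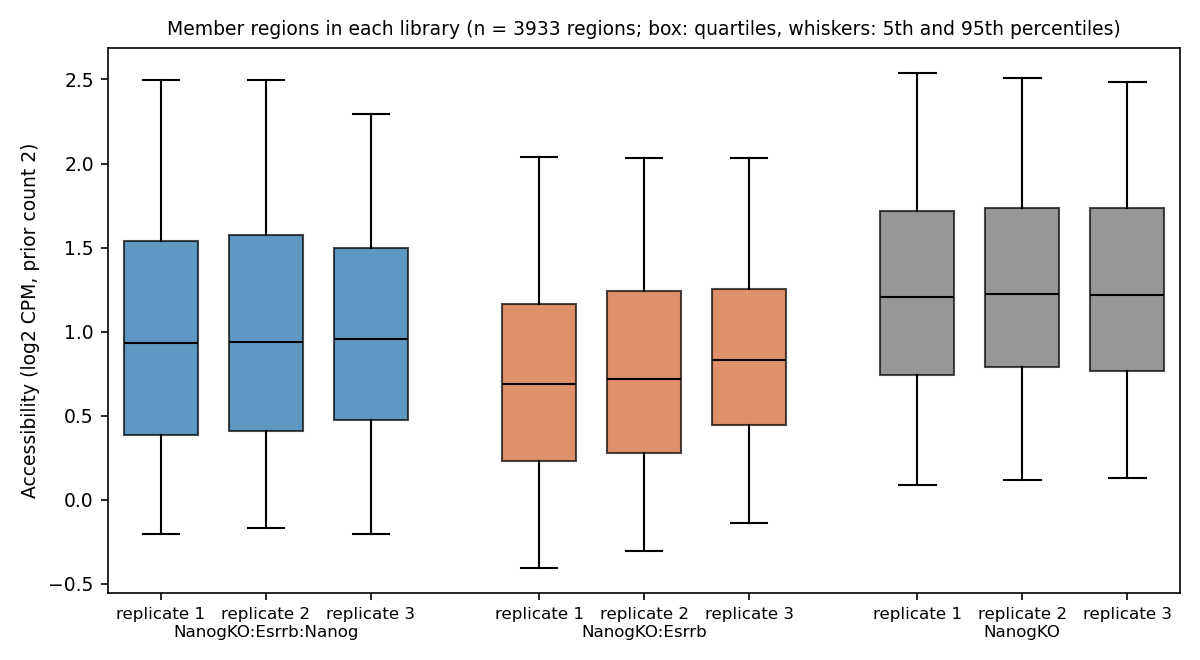
Accessibility of the 3933 members in each library, as log2 CPM with a prior count of 2. Boxes span the quartiles with the median as a line and whiskers reach the 5th and 95th percentiles; medians are lowest in the 3 NanogKO:Esrrb libraries and highest in the 3 NanogKO libraries, with wide overlap of the boxes.

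The third NanogKO:Esrrb library stood nearer to the other groups in these regions. It was the highest of its group in 44.7% of members and the lowest in 17.0%, against 32.0% and 35.2% over all counted regions. In regions of the NanogKO and NanogKO:Esrrb lists alone the shares were 43.3% and 26.6%, so a high share was not particular to members. In regions of the NanogKO list alone they were 34.8% and 32.8%. Replicate 1 was the highest in 22.6% of members and replicate 2 in 32.7%. The 3 NanogKO libraries were each highest in 32.6 to 34.4% of members. This is the library whose peak names fill the NanogKO:Esrrb:Nanog list. Every member thus overlapped an interval named after it, so the rule did not treat the libraries of its group alike. The part of that in the members' levels was not tested beyond leaving the library out. Without it the median log2 fold change of members was -0.45 for NanogKO:Esrrb minus NanogKO and 0.24 for NanogKO:Esrrb:Nanog minus NanogKO:Esrrb, against -0.40 and 0.20 with all 9 libraries.

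The lower level in NanogKO:Esrrb follows the rule, which drew on peaks from these libraries, so it is given as a description without a test. An edgeR call was set at 0.05 for p adjusted by Benjamini-Hochberg over all tested regions. For NanogKO:Esrrb minus NanogKO, 1454 of the 3933 members were called in either direction, about the share over all tested regions (37.0%). Of these, 1427 were called lower (36.3% of members, against 17.0% of all tested regions). That left 27 members called higher, a direction in which 31482 of the 157439 tested regions were called. The median log2 fold change was -0.40, with quartiles of -0.69 and -0.17. For NanogKO:Esrrb:Nanog minus NanogKO:Esrrb, 692 of the 3933 members were called in either direction, a smaller share than the 24.6% of all tested regions. Of these, 654 were higher (16.6% of members, against 12.6% of all tested regions) and 38 lower (0.966%, against 12.0%). The median was 0.20. All-region medians were -0.01 in both comparisons. All 3933 members passed the filter on low counts, which kept 157439 regions.

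A dip in NanogKO:Esrrb that was called on both sides was present in a minority of members. Both calls rest on contrasts that the rule used, so their share is a description that the choice of members shapes. In 292 members (7.42%; 1.77% of all tested regions) NanogKO:Esrrb was called lower than NanogKO and NanogKO:Esrrb:Nanog was called higher than NanogKO:Esrrb. Another 1118 were called lower in NanogKO:Esrrb than in NanogKO with no call for NanogKO:Esrrb:Nanog against NanogKO:Esrrb, 357 had the reverse, and 2101 (53.4%) had neither call. These were 28.4%, 9.08% and 53.4% of members, against 12.7%, 6.78% and 49.2% of all tested regions. All 3 NanogKO:Esrrb libraries lay below the 6 others in 612 members (15.6%; 4.69% of all tested regions) and above them in 7 (0.178%; 5.69% of all tested regions). The fall against NanogKO and the rise in NanogKO:Esrrb:Nanog both exceeded 2-fold in 35 members (0.890%), a share that was not computed over all tested regions. Without NanogKO:Esrrb replicate 1 the count of 292 became 152, and the share of all tested regions called on both sides became 0.967%.

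**Figure D2:**
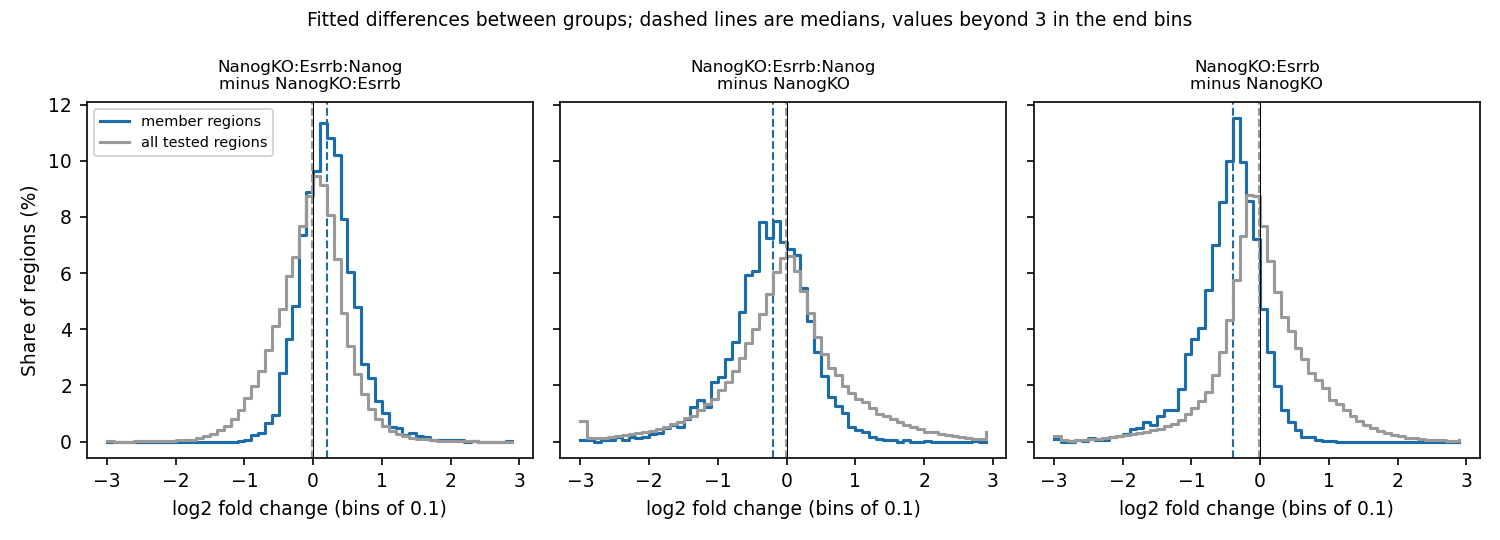
Share of regions (vertical axis, percent) by fitted log2 fold change (horizontal axis, bins of 0.1) for members and for all tested regions, in the 3 comparisons; dashed lines are medians. The member medians lie at 0.20, -0.21 and -0.40 from left to right, and those of all tested regions near 0.

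The comparison of NanogKO:Esrrb:Nanog with NanogKO asks how far both factors together left these regions at their NanogKO level. The rule names no direction between these groups. It still does not treat them alike, because every interval on the NanogKO:Esrrb:Nanog side is named after a NanogKO:Esrrb peak, and whether this moves the members towards higher NanogKO values was not tested. Of the 3933 members 1369 were called in either direction, a smaller share than the 49.3% of all tested regions. More were lower than higher: 1050 were called lower (26.7%, against 24.4% of all tested regions) and 319 higher (8.11%, against 24.9%). The share called lower was thus near that of all tested regions, and the share called higher was below it. The median log2 fold change was -0.21, against -0.01 over all tested regions, and 34.6% of members lay above 0. Requiring each of the 2 lists to cover at least 50% of a region left 2654 members, with a median of -0.08, 270 higher and 452 lower. Of the 292 members called low in NanogKO:Esrrb on both sides, 236 had no call in NanogKO:Esrrb:Nanog against NanogKO, 24 were higher and 32 lower. Of the 1118 called lower in NanogKO:Esrrb than in NanogKO with no call for NanogKO:Esrrb:Nanog against NanogKO:Esrrb, 770 were also called lower in NanogKO:Esrrb:Nanog than in NanogKO. Of the 357 called only higher in NanogKO:Esrrb:Nanog than in NanogKO:Esrrb, 188 were higher than in NanogKO as well. These splits were not computed over all tested regions and describe the members alone, which held regions of unlike profile. Median CPM in the 292 was 2.95 in NanogKO:Esrrb:Nanog, 1.51 in NanogKO:Esrrb and 2.94 in NanogKO. In the 1118 it was 1.61, 1.52 and 2.88 in the same groups, and in the 2101 without either call 1.78, 1.67 and 1.94.

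The 12 deepest dips were taken from members of at least median abundance whose NanogKO:Esrrb libraries lay below all others, and each carries its nearest protein-coding gene as a position, not as a target. Their values describe the selection. At chr16:22800185-22800731, 4472 bp from Crygs, a lens crystallin gene, CPM was 5.93, 5.52 and 7.0 in NanogKO:Esrrb:Nanog, 1.41, 1.37 and 1.41 in NanogKO:Esrrb, against 4.0, 5.24 and 4.07 in NanogKO. The region held its lowest level in NanogKO:Esrrb, and its NanogKO:Esrrb:Nanog libraries lay above all NanogKO libraries (log2 fold change 0.47 ± 0.16 SE, edgeR adjusted p = 0.0194). That call was lost without NanogKO replicate 1 or 3 or without NanogKO:Esrrb:Nanog replicate 3 (edgeR adjusted p = 0.0854, 0.0779 and 0.0874), and when scaling by library totals alone (edgeR adjusted p = 0.0720). Within Fbxo11, which encodes an F-box subunit of a ubiquitin ligase, the region chr17:88030705-88030918 had 3.94, 4.08 and 4.03 CPM in NanogKO:Esrrb:Nanog, 0.815, 0.603 and 0.870 CPM in NanogKO:Esrrb, against 2.15, 1.82 and 1.87 CPM in NanogKO. The 3 groups were separate, and NanogKO:Esrrb:Nanog exceeded NanogKO by 1.05 ± 0.19 (log2, SE; edgeR adjusted p = 6.46e-05). Regions within Lacc1 and 219587 bp from Gm38481 had the same order of groups, at 0.67 ± 0.19 and 0.91 ± 0.23 (edgeR adjusted p = 0.00440 and 0.00167).

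Other deep dips returned to about the NanogKO level or stayed below it. Within Dgat2, which encodes an enzyme of the last step of triglyceride synthesis, chr7:99171758-99172389 had 3.86, 3.73 and 4.29 CPM in NanogKO:Esrrb:Nanog, 1.31, 1.24 and 1.55 CPM in NanogKO:Esrrb, against 4.46, 5.62 and 4.85 CPM in NanogKO. The NanogKO:Esrrb:Nanog libraries lay just under the NanogKO libraries, a difference of -0.33 ± 0.17 (log2, SE) that did not pass the test (edgeR adjusted p = 0.109) but was called when scaling by library totals alone, at -0.43 (edgeR adjusted p = 0.0490). Within Etv6, a gene for an ETS-family repressor, chr6:134119218-134119402 had 3.01, 3.58 and 3.23 CPM in NanogKO:Esrrb:Nanog, 1.33, 1.24 and 1.51 CPM in NanogKO:Esrrb, against 3.05, 4.57 and 4.01 CPM in NanogKO, with the outer groups overlapping. Regions near Prol1, Mro and Epb41l4a likewise had no call between NanogKO:Esrrb:Nanog and NanogKO (edgeR adjusted p = 0.350, 0.314 and 0.659). Near Mro the difference of 0.27 ± 0.22 became 0.53 and was called without NanogKO:Esrrb:Nanog replicate 1 (edgeR adjusted p = 0.0340). Far from any gene, 596060 bp from Prmt6, chr3:110847059-110847744 had 2.99, 1.58 and 5.36 CPM in NanogKO:Esrrb:Nanog, 1.09, 0.737 and 1.44 CPM in NanogKO:Esrrb, against 11, 12.4 and 12.3 CPM in NanogKO. It remained lower than in NanogKO by a log2 fold change of -1.81 ± 0.25 (edgeR adjusted p = 7.39e-07), with wide spread in NanogKO:Esrrb:Nanog. Within Fat3, an atypical cadherin gene, and 59230 bp from Pate13, NanogKO:Esrrb:Nanog was also lower than NanogKO, at -0.74 ± 0.19 and -0.95 ± 0.21 (edgeR adjusted p = 0.00186 and 0.000381).

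**Figure D3:**
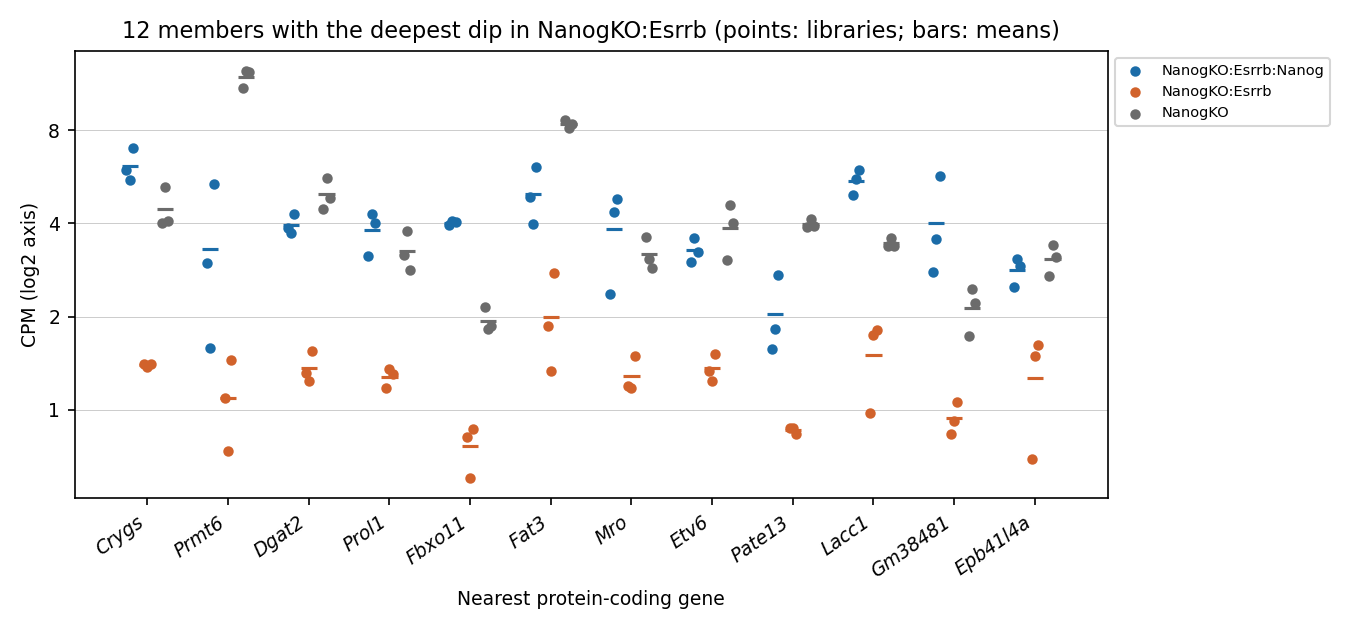
CPM (log2 axis) of the 12 members with the deepest dip in NanogKO:Esrrb, named by their nearest protein-coding gene. Points are libraries and bars are group means; at Crygs the NanogKO:Esrrb:Nanog points lie above those of NanogKO, and at Prmt6 far below them.

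The largest rises of NanogKO:Esrrb:Nanog over NanogKO among members of at least median abundance were in regions whose NanogKO:Esrrb:Nanog libraries lay above all libraries of both other groups. Within Il9r, the interleukin 9 receptor gene, chr11:32196062-32196542 had 12.9, 16.5 and 15.0 CPM in NanogKO:Esrrb:Nanog, 0.894, 0.938 and 1.76 CPM in NanogKO:Esrrb, against 1.95, 2.39 and 2.03 CPM in NanogKO. The NanogKO:Esrrb:Nanog libraries were 6.92-fold above NanogKO (log2 fold change 2.79 ± 0.19, edgeR adjusted p = 5.37e-12), and the other groups did not overlap each other. Beside Arih1, an E3 ubiquitin ligase gene, chr9:59387624-59387791 had 6.20, 5.75 and 7.25 CPM in NanogKO:Esrrb:Nanog, 0.815, 0.787 and 1.01 CPM in NanogKO:Esrrb, against 1.41, 1.49 and 1.64 CPM in NanogKO (2.08 ± 0.19, edgeR adjusted p = 8.13e-10). In both regions the NanogKO:Esrrb libraries lay below those of NanogKO. Regions near 1700093K21Rik, within Nav1, a neuron navigator gene, and near Nectin1, a cell adhesion gene, rose by 1.77 ± 0.25, 1.72 ± 0.19 and 1.53 ± 0.25 (edgeR adjusted p = 1.07e-06, 1.68e-08 and 1.09e-05). Near Nectin1 the NanogKO:Esrrb libraries, at 1.35, 2.98 and 1.95 CPM, overlapped those of NanogKO, at 1.34, 1.60 and 1.18 CPM.

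The largest falls among members of at least median abundance were in regions that were open in NanogKO and lower in both other groups. Within Thrb, the gene of thyroid hormone receptor beta, chr14:17737284-17737516 had 1.12, 1.35 and 1.21 CPM in NanogKO:Esrrb:Nanog, 1.95, 1.21 and 1.62 CPM in NanogKO:Esrrb, against 9.66, 10.2 and 9.39 CPM in NanogKO. NanogKO:Esrrb:Nanog was 7.99-fold lower than NanogKO (log2 fold change -3.0 ± 0.19, edgeR adjusted p = 1.24e-12) and overlapped NanogKO:Esrrb. Near Acsl3, a long-chain acyl-CoA synthetase gene, within Ssbp3, the gene of a single-stranded DNA-binding protein, and at C030002A05Rik the log2 fold changes were -2.92 ± 0.20, -2.88 ± 0.21 and -2.83 ± 0.20 (edgeR adjusted p = 4.76e-12, 1.12e-11 and 8.34e-12). Within Arf1, a gene for a small GTPase of the Golgi, chr11:59218414-59218883 had 1.97, 2.08 and 1.69 CPM in NanogKO:Esrrb:Nanog, 1.65, 1.19 and 1.65 CPM in NanogKO:Esrrb, against 12.8, 11.9 and 11.7 CPM in NanogKO (-2.67 ± 0.17, edgeR adjusted p = 1.27e-12). These regions had scores of 63 to 175 in the NanogKO:Esrrb:Nanog list, where the median over members was 133. Their scores in the NanogKO list were 915 to 1457, where the median over members was 194.

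**Figure D4:**
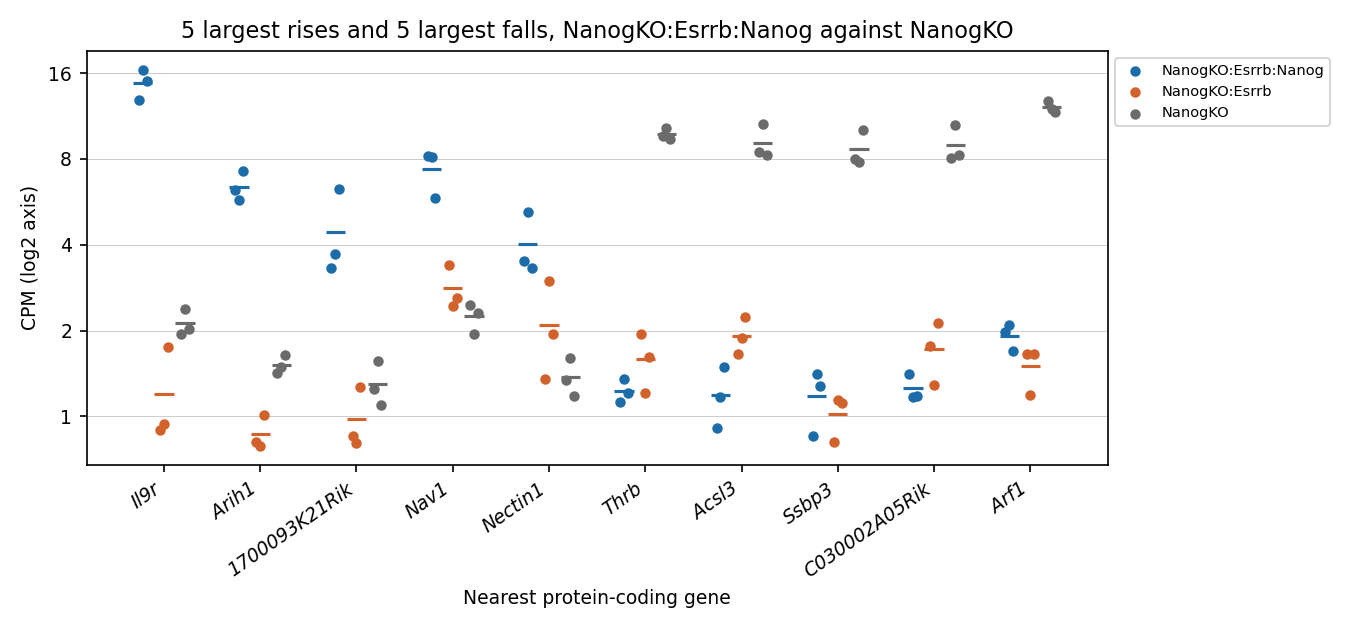
CPM (log2 axis) of the 5 members with the largest rise and the 5 with the largest fall in NanogKO:Esrrb:Nanog against NanogKO, named by nearest protein-coding gene. Points are libraries and bars are group means; on the right the NanogKO:Esrrb:Nanog and NanogKO:Esrrb points all lie well below those of NanogKO, and at Acsl3 those of NanogKO:Esrrb:Nanog are the lower.

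The 3 most accessible members were open in all 3 groups. Near Tle3, a Groucho co-repressor gene, chr9:61370482-61370652 had 15.5, 15.1 and 12.0 CPM in NanogKO:Esrrb:Nanog, 10.9, 7.44 and 8.99 CPM in NanogKO:Esrrb, against 8.10, 9.31 and 8.76 CPM in NanogKO. NanogKO:Esrrb:Nanog lay above NanogKO by 0.70 ± 0.14 (log2, SE; edgeR adjusted p = 0.000221), while NanogKO:Esrrb overlapped NanogKO. Within Ano8, an anoctamin gene, the difference was -0.35 ± 0.13 (edgeR adjusted p = 0.0287), a call lost when any of 5 libraries was left out, and within Tjp3, a tight junction protein gene, 0.06 ± 0.14 (edgeR adjusted p = 0.737). At the other end, NanogKO:Esrrb was highest relative to both other groups near Selenof, within Zfp292 and near Ube2h. Near Ube2h, a ubiquitin-conjugating enzyme gene, the values were 2.63, 3.84 and 3.49 CPM in NanogKO:Esrrb:Nanog, 3.97, 4.51 and 3.67 CPM in NanogKO:Esrrb, against 2.88, 2.68 and 3.02 CPM in NanogKO. Absence from the NanogKO:Esrrb list thus went with a level above every NanogKO library in this region.

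Members at promoters had, in their medians, a smaller fall and a larger rise than members as a whole. Of the 83, 27 were called lower in NanogKO:Esrrb than in NanogKO and 32 higher in NanogKO:Esrrb:Nanog than in NanogKO:Esrrb, with medians of -0.34 and 0.43, and none was called the other way in either comparison. These were 32.5% and 38.6% of the 83, against 13.8% and 17.8% of all 13920 tested regions at promoters, whose medians were -0.07 and 0.14. Over all tested regions the second median was -0.01, so a higher value there was also a trait of promoter regions at large. The rule used both contrasts, and these values are a description. Against NanogKO, 18 were called higher in NanogKO:Esrrb:Nanog (21.7%) and 15 lower (18.1%), with a median of 0.10, against 20.7% and 12.4% of tested promoter regions, with a median of 0.07. At Phkg1, whose sequence is printed above, CPM was 3.55, 3.81 and 3.20 in NanogKO:Esrrb:Nanog, 2.27, 2.14 and 2.26 in NanogKO:Esrrb, against 4.27, 4.23 and 3.65 in NanogKO. At Tmem102 it was 6.68, 7.19 and 6.02 in NanogKO:Esrrb:Nanog, 4.39, 4.0 and 3.91 in NanogKO:Esrrb, against 5.58, 5.0 and 7.01 in NanogKO. In both the NanogKO:Esrrb libraries lay below all others, and NanogKO:Esrrb:Nanog did not pass the test against NanogKO (edgeR adjusted p = 0.327 and 0.369). At Dmrt3 the values were 9.75, 12.1 and 5.27 CPM in NanogKO:Esrrb:Nanog, 5.21, 4.79 and 4.82 CPM in NanogKO:Esrrb, against 8.0, 7.50 and 7.32 CPM in NanogKO. Its NanogKO:Esrrb:Nanog replicate 3 was near the NanogKO:Esrrb level, and the comparison with NanogKO, 0.24 ± 0.19 (edgeR adjusted p = 0.308), was called without that library, at 0.52 (edgeR adjusted p = 0.00346).

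At N4bp1, CPM was 14.1, 17.7 and 8.27 in NanogKO:Esrrb:Nanog, 8.03, 7.05 and 6.78 in NanogKO:Esrrb, against 6.54, 6.67 and 7.46 in NanogKO. NanogKO:Esrrb:Nanog was above NanogKO by 0.95 ± 0.18 (log2, SE; edgeR adjusted p = 8.58e-05). At Sox12 the values were 12.8, 14.9 and 7.85 CPM in NanogKO:Esrrb:Nanog, 8.72, 5.88 and 7.50 CPM in NanogKO:Esrrb, against 10.4, 9.02 and 8.09 CPM in NanogKO, and the groups overlapped (0.36 ± 0.18, edgeR adjusted p = 0.0962). Without NanogKO:Esrrb:Nanog replicate 3, Sox12 and Sp3, the gene of a GC-box binding factor, were both called, at 0.59 and 0.58. That library was the lowest of its group in 9 of the 10 promoter members named, against 37.6% of all members and 31.2% of all counted regions. The 10 were picked by depth of dip or by abundance, so the count describes them alone. The part of that library in these values was not tested beyond leaving it out.

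**Figure D5:**
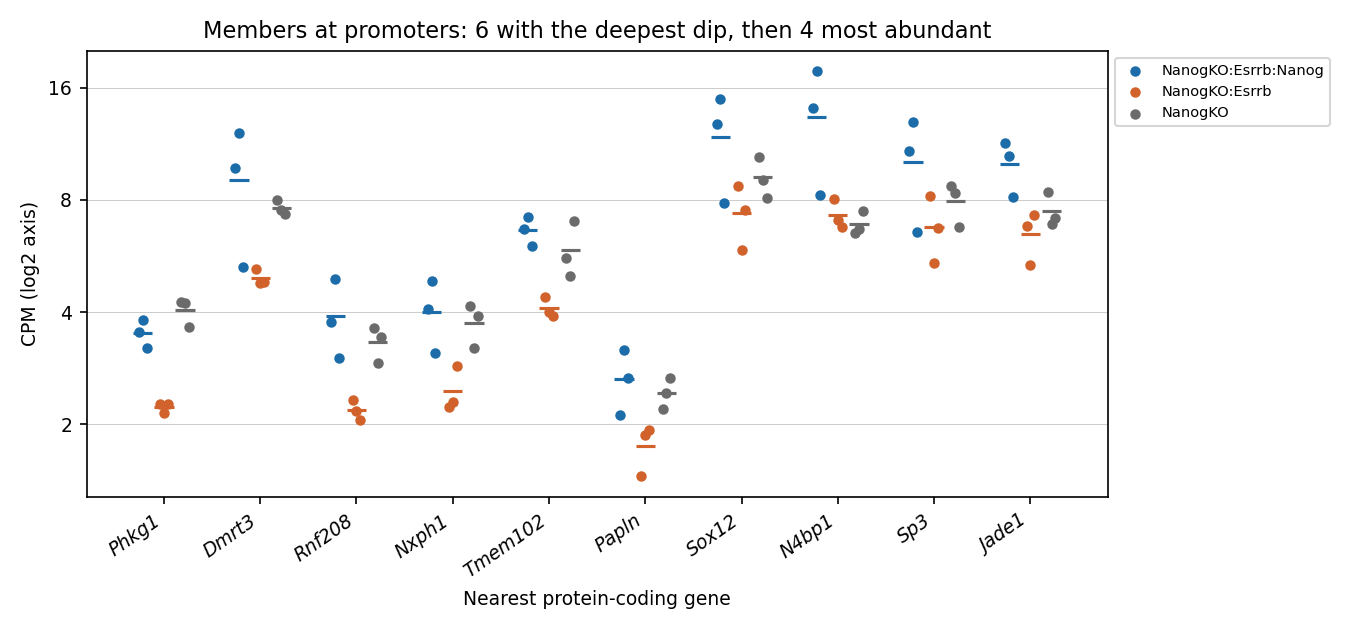
CPM (log2 axis) of 10 members that overlap a promoter, the 6 with the deepest dip followed by the 4 most abundant. Points are libraries and bars are group means. In 9 of 10 the third NanogKO:Esrrb:Nanog library is the lowest of its group, against 37.6% of all members.

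Members lay mostly away from gene ends. Within 1 kb of a gene end lay 7.73% of members, against 14.8% of all counted regions and 21.3% of regions in all 3 lists. The share was 5.85% for regions in the NanogKO list alone and 7.69% for those in the NanogKO and NanogKO:Esrrb lists alone. Of the members, 49.3% lay within genes and 43.0% between them. Members between genes had medians of -0.41 for NanogKO:Esrrb minus NanogKO and 0.15 for NanogKO:Esrrb:Nanog minus NanogKO:Esrrb, and those at gene ends -0.34 and 0.29. Many lay beside NanogKO:Esrrb peaks: 559 (14.2%) were within 500 bp of an interval of that list, and the median distance was 3528 bp. Those 559 had medians of -0.31 for NanogKO:Esrrb minus NanogKO, 0.32 for NanogKO:Esrrb:Nanog minus NanogKO:Esrrb and 0.05 for NanogKO:Esrrb:Nanog minus NanogKO, against -0.46, 0.15 and -0.32 in the 1650 members over 5 kb away. Just inside the rule, a region within Ythdf1 ended 7 bp from a NanogKO:Esrrb interval and had 1.64, 2.17 and 2.20 CPM in NanogKO:Esrrb:Nanog, 1.13, 1.52 and 1.39 CPM in NanogKO:Esrrb, against 1.71, 1.80 and 2.09 CPM in NanogKO. Regions within Plxnb2 and Plekhm1 followed at 20 and 21 bp. Just outside it, a region within Prkce shared 3 bp with an interval and had 0.975, 1.61 and 1.38 CPM in NanogKO:Esrrb:Nanog, 0.497, 0.502 and 0.418 CPM in NanogKO:Esrrb, against 0.537, 0.478 and 0.588 CPM in NanogKO. Regions near Mtfr2 and within Arhgap10 shared 4 and 11 bp.

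Genes of the pluripotency network, of signalling pathways and of other lineages were looked up in 14 lists. For these lists, with 210 distinct genes, 86 members (2.19%) lay in or within 50 kb of a listed gene, against 2.80% of all tested regions. Of these 86, 26 were called lower and 1 higher in NanogKO:Esrrb than in NanogKO, 18 were called higher in NanogKO:Esrrb:Nanog than in NanogKO:Esrrb, and 6 higher and 18 lower in NanogKO:Esrrb:Nanog than in NanogKO. As shares these were 30.2%, 1.16%, 20.9%, 6.98% and 20.9%, against 14.7%, 23.1%, 17.2%, 31.5% and 18.3% of the 4404 tested regions near listed genes. By list, members made up 0.794% (neural) to 3.45% (fibroblast) of the tested regions nearby, against 2.50% over all regions. No member lay within 50 kb of Nanog and 1 lay within Esrrb, at chr12:86398913-86399129. It had 2.74, 4.43 and 2.78 CPM in NanogKO:Esrrb:Nanog, 1.69, 2.23 and 1.90 CPM in NanogKO:Esrrb, against 2.07, 2.63 and 2.64 CPM in NanogKO. The NanogKO:Esrrb:Nanog libraries lay above the rest, and the difference from NanogKO, 0.42 ± 0.21 (edgeR adjusted p = 0.0993), was called without NanogKO:Esrrb:Nanog replicate 3, at 0.53 (edgeR adjusted p = 0.0463).

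The naive pluripotency list had 11 members near 9 of its 20 genes, with a median of 0.38 for NanogKO:Esrrb:Nanog minus NanogKO, against 0.47 over all tested regions near those genes. Its deepest dip was within Tex2, 47614 bp from Pecam1, the gene of the surface marker used in the sort, at chr11:106606081-106606599. CPM there was 3.73, 3.29 and 3.77 in NanogKO:Esrrb:Nanog, 2.50, 2.36 and 2.51 in NanogKO:Esrrb, against 10.5, 11.2 and 11.3 in NanogKO, so NanogKO:Esrrb:Nanog stayed far below NanogKO (-1.61 ± 0.14, edgeR adjusted p = 7.34e-10). Pecam1 also stands in the endothelium and blood list, which had 4 members. The general pluripotency list had 7 members, and its deepest dip, near Dppa4, reached 2.76 to 3.54 CPM in NanogKO:Esrrb:Nanog, 2.23 to 2.70 CPM in NanogKO:Esrrb and 3.00 to 3.18 CPM in NanogKO. The formative and primed list had 6 members, of which 4 were called lower in NanogKO:Esrrb than in NanogKO and 2 higher in NanogKO:Esrrb:Nanog than in NanogKO:Esrrb. Of all 369 tested regions near these genes, 25.2% and 17.3% were called in those directions. Beside Zic2, a zinc finger gene of primed cells, chr14:122481244-122481492 had 3.55, 5.72 and 4.86 CPM in NanogKO:Esrrb:Nanog, 2.58, 2.38 and 3.17 CPM in NanogKO:Esrrb, against 5.29, 4.98 and 5.94 CPM in NanogKO. The outer groups overlapped there (-0.21 ± 0.18, edgeR adjusted p = 0.351).

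Among signalling lists, the WNT list had the most members, 12 near 9 of 16 genes, with 4 called lower in NanogKO:Esrrb than in NanogKO and 5 higher in NanogKO:Esrrb:Nanog than in NanogKO:Esrrb. Of all 378 tested regions near these genes, 17.2% and 18.3% were called in those directions. Its deepest dip lay within Tcf7l1, which encodes a TCF repressor of naive genes, with 3.21, 2.64 and 2.68 CPM in NanogKO:Esrrb:Nanog, 2.21, 1.47 and 1.91 CPM in NanogKO:Esrrb, against 2.54, 2.68 and 2.96 CPM in NanogKO. The ERK feedback list had 6 members, and within Spred1, an inhibitor of RAS to ERK signalling, levels were 1.06 to 1.92 CPM in NanogKO:Esrrb:Nanog, 0.787 to 1.13 CPM in NanogKO:Esrrb and 2.47 to 2.90 CPM in NanogKO (NanogKO:Esrrb:Nanog minus NanogKO -0.75 ± 0.23, edgeR adjusted p = 0.00835). That call was lost without NanogKO:Esrrb:Nanog replicate 1 (edgeR adjusted p = 0.0679). The LIF and STAT3 list had 5 members, none called between NanogKO:Esrrb and NanogKO. Of all 419 tested regions near these genes, 6.68% were called lower and 37.2% higher in that comparison. The nuclear receptor list had 10 members, among them the one in Esrrb.

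Lineage lists had between 2 and 9 members each. The primitive endoderm list had 9, of which 4 were called lower and 1 higher in NanogKO:Esrrb than in NanogKO, directions in which 14.4% and 23.0% of all 313 tested regions near these genes were called. Its deepest dip lay 1142 bp from Pdgfra, the gene of the other sort marker, with 2.72, 2.90 and 2.66 CPM in NanogKO:Esrrb:Nanog, 1.45, 2.11 and 2.11 CPM in NanogKO:Esrrb, against 3.68, 3.36 and 2.55 CPM in NanogKO. The mesendoderm list had 2 members, one at Lefty1, an inhibitor of Nodal signalling, and neither was called in any comparison. Of all 230 tested regions near these genes, 15.2% were called lower and 7.83% higher in NanogKO:Esrrb than in NanogKO. Against NanogKO:Esrrb, 11.3% were called higher and 8.70% lower in NanogKO:Esrrb:Nanog, and against NanogKO 17.0% and 23.0%. The neural list had 2, and within Map2, a neuronal microtubule gene, NanogKO:Esrrb:Nanog was below NanogKO by a log2 fold change of -1.27 ± 0.21 (edgeR adjusted p = 1.24e-05). The trophoblast list had 6, the fibroblast list 5 and the housekeeping list 8. Near Col3a1, a fibrillar collagen gene of the fibroblast list, CPM was 2.49, 3.11 and 4.32 in NanogKO:Esrrb:Nanog, 1.83, 1.54 and 1.41 in NanogKO:Esrrb, against 3.05, 3.27 and 3.02 in NanogKO. As to cell identity, all 10 embryonic stem cell markers had counted regions. Their summed CPM was 953 to 1007 in NanogKO:Esrrb:Nanog, 722 to 780 in NanogKO:Esrrb and 557 to 582 in NanogKO. These markers include Nanog and Esrrb, the genes knocked out or added in these cells, and sums without them were not computed. The order of the groups is therefore not a measure of cell identity. Regions at the 6 fibroblast markers summed to 128 to 142, 116 to 123 and 132 to 142 CPM in the same groups, those at the primitive endoderm markers to 251 to 271, 228 to 263 and 278 to 298 CPM, and those at the endothelium and blood markers to 234 to 261, 212 to 225 and 240 to 250 CPM. NanogKO was thus highest at the primitive endoderm markers without overlap, and the part of any admixture of other cells in the members' values was not tested.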

How the data were processed

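ATAC-seq read counts per region were deposited by the authors as whole numbers with no normalization, for 9 libraries and 157497 regions on mm10, per the file headers and the submitters' processing notes. Merging the 3 deposited peak lists gave these regions exactly. Each peak's score in the deposited lists is the authors' own value, per the peak names from MACS2, was 13 or higher, and served here only to describe peaks. The notes also name bcl2fastq, cutadapt, Bowtie2, SAMtools, deepTools and bedtools. The counting tool, any shift of reads for the transposase and any removal of duplicates are not given in the sources used here.

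Overlaps were computed with bedtools 2.31.1. An edgeR 4.0.16 model (R 4.3.3) of group means took the counts of all 9 libraries with TMM factors after filterByExpr, and its quasi-likelihood F test was used (6 residual degrees of freedom), adjusted over 157439 regions with a threshold of 0.05. CPM values use TMM-scaled library totals. Totals of 35545030 to 58520948 reads gave members a median of 64 to 125 reads per library. On simulated counts 200 regions were changed and all others were left unchanged. Recovered were 22%, 28% and 16% at 1.5-fold and 74%, 72% and 78% at 2-fold, with 9, 4 and 15 false calls. The order is NanogKO:Esrrb minus NanogKO, NanogKO:Esrrb:Nanog minus NanogKO:Esrrb, NanogKO:Esrrb:Nanog minus NanogKO. In the data 37.0%, 24.6% and 49.3% of tested regions were called in that order, far more than were changed in the simulation. Adjusted p-values depend on how many regions change. The simulated shares therefore do not give the recovery or the error rate of the reported calls. Nearest genes are protein-coding RefSeq genes. Motifs were searched in RefSeq promoter windows, since no genome was used here, and not in windows at region centres as first planned. Promoters on chromosome 18 were not used here.

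The members, the gene lists and the naming rule were chosen with earlier results of these data known. Named regions are the 12 deepest dips, the 5 largest rises and 5 largest falls of NanogKO:Esrrb:Nanog against NanogKO, the 3 most accessible, the 3 with NanogKO:Esrrb highest, the deepest dip near each list and every member within 50 kb of Nanog or Esrrb. Promoter members were added after their values were seen. Both comparisons with NanogKO:Esrrb used the contrasts of the rule, so their calls are printed as a description beside the share over all tested regions, with no p-value. Libraries of the same replicate number deviated together between NanogKO:Esrrb and NanogKO (correlation 0.117 to 0.152) and between NanogKO:Esrrb:Nanog and NanogKO:Esrrb (0.105 to 0.146), which met the criterion for pairing (every correlation over 0.1). Between NanogKO:Esrrb:Nanog and NanogKO the correlation was 0.002 to 0.136, which did not meet it. The reported fit has no replicate term, and the fit with a replicate block is an alternative. The pairing comes from these values and not from the labels. No libraries of a group were copies (chi-square per region 3.55 to 9.55).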

Additional observations from a re-analysis of the deposited data

How the results depend on the processing

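Directions of the 3 member medians held under every alternative run, which were 6 other definitions of the members (2 of them chosen after seeing the data), other scaling, no filter, DESeq2 1.42.0, fits of 6 libraries, the replicate block and leaving out each library. All of these used the same lists and libraries. The rule shapes the direction of the 2 medians against NanogKO:Esrrb, so that these held is a description and no independent check. Covering at least 50% of a region gave 795 and 722 calls for NanogKO:Esrrb minus NanogKO and NanogKO:Esrrb:Nanog minus NanogKO, with medians of -0.34 and -0.084, and a median of 0.25 for NanogKO:Esrrb:Nanog minus NanogKO:Esrrb. A score of 100 or higher in both lists, chosen after seeing the data, left 2405 members with 817 calls for NanogKO:Esrrb minus NanogKO, 376 for NanogKO:Esrrb:Nanog minus NanogKO:Esrrb and 823 for NanogKO:Esrrb:Nanog minus NanogKO, 136 dips called on both sides and 331 members with NanogKO:Esrrb below the 6 others. Other definitions of the members leave these shares of all tested regions at 37.0%, 24.6%, 49.3%, 1.77% and 4.69% in the same order. Library totals alone moved the median of all regions to -0.10 for NanogKO:Esrrb:Nanog minus NanogKO and -0.11 for NanogKO:Esrrb:Nanog minus NanogKO:Esrrb, with member medians of -0.30 and 0.093 and 192 dips called on both sides. With that scaling 1.11% of all tested regions were called as dips. The replicate block gave 1587, 820 and 1483 calls in the order NanogKO:Esrrb minus NanogKO, NanogKO:Esrrb:Nanog minus NanogKO:Esrrb, NanogKO:Esrrb:Nanog minus NanogKO, and 366 dips, against 1454, 692, 1369 and 292 without it. Of all tested regions the block called 40.4%, 29.1% and 52.4% in that order, and 2.39% as dips. Leaving out single libraries gave 1091 to 1601, 424 to 833 and 1090 to 1386 calls in that order, medians of -0.45 to -0.38, 0.17 to 0.24 and -0.22 to -0.20, and 152 to 357 dips. Of all tested regions these fits called 29.8 to 40.7%, 15.6 to 31.8% and 42.5 to 51.5%, and 0.967 to 2.51% as dips. NanogKO:Esrrb was below the others in 666 to 934 members, fewer libraries being compared. The share over all tested regions was not computed for this range. The counts of 424 and 445 calls came without NanogKO:Esrrb replicate 1 and NanogKO:Esrrb:Nanog replicate 2. Counting gene ends within 5 kb put 22.5% of members at gene ends, 41.2% within genes and 36.4% between them. Of the fold changes of named regions, none reversed with a call, 69 lost a call and 24 gained one out of 2250 refits. The causes of these differences were not tested. Depth, a median of 64 to 125 reads per member and library, limits which small changes can be called.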

Other observations

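The nearest counted region had an interval in the NanogKO:Esrrb list for 3101 members (78.8%), against 81.2% over all counted regions, and was itself a member for 120 (3.05%). For the 905 members whose neighbour lay within 1 kb and had such an interval, medians were -0.34 in members and -0.04 in neighbours for NanogKO:Esrrb minus NanogKO, and 0.28 and 0.05 for NanogKO:Esrrb:Nanog minus NanogKO:Esrrb. For the 967 with such a neighbour 5 to 50 kb away, they were -0.45 and -0.05, and 0.15 and -0.05. The members' own values were used by the rule, so these medians are descriptions.

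Members were also split at their median length. Those over the median length were called lower in NanogKO:Esrrb than in NanogKO in 50.4% of cases, against 22.4% for those at or under it, with medians of -0.55 and -0.31. All tested regions split at the same length were called so in 17.4% and 15.1% of cases, with medians of -0.01 and 0.01. For NanogKO:Esrrb:Nanog minus NanogKO:Esrrb the member medians were 0.20 and 0.19. Members on X made up 3.37% of the counted regions there, against 1.85% on chromosome 8, with every other chromosome between.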
